A study of Homo sapiens with 16 samples.

Results

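The genes described here are 56 nucleolar proteins and ribosome assembly factors, followed through ribosome profiling of human A549 cells depleted of METTL16 or of eIF4E2. They were taken by gene name from a list of such factors, drawn up with earlier results of these data known, and they are 56 of the 12587 genes listed in the series. By role they comprise 3 core proteins of C/D small nucleolar RNPs (NOP56, NOP58, FBL), 4 of H/ACA small nucleolar RNPs (DKC1, GAR1, NHP2, NOP10) and 3 abundant nucleolar RNA-binding proteins (NCL, NPM1, DDX21). The largest share serves the small-subunit processome, with 8 UTP-named proteins, 5 WD-repeat proteins and 10 other factors. A further 9 act late in 40S maturation and 13 in 60S maturation, and SURF2 was given no role. In all, 52 genes were measured in every sample. MPHOSPH10 was not listed for the untreated cells, RIOK1 for shM16, RIOK2 for both sheIF4E2 samples and NOP2 for shscramble replicate 1. NOP2, with 1.39 to 3.06 TPM in input and 0 to 0.673 TPM in footprints, fell below the filter in every table, so 54 of the genes entered each comparison.

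Ribosomes are built in the nucleolus, where a long precursor RNA is transcribed, modified under the guidance of small nucleolar RNPs, folded and cut while ribosomal proteins join it. The small-subunit processome is the large particle that forms on the part of the precursor that becomes 18S rRNA, and its product leaves the nucleus for final trimming in the cytoplasm. A separate set of factors, including the PES1, BOP1 and WDR12 complex, assembles the 60S subunit. Many of these genes are transcribed together in growing cells, and in tumour lines they are commonly abundant.

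A549 cells derive from a human non-small cell lung carcinoma. Each of 8 samples gave 1 footprint library (mRNA fragments of 30 nt shielded by ribosomes from RNase I) and 1 input library (total RNA fragmented to 40 to 60 nt), after 2 h in fresh medium and 5 min of cycloheximide at 100 µg/mL. The sgM16 group holds 2 hybrid clones made with 1 guide RNA against METTL16, an RNA methyltransferase, and was set against 1 sample labelled as untreated A549. The shM16 group is 1 sample with 1 hairpin against METTL16, set against shscramble replicate 1. The sheIF4E2 group holds 2 biological replicates of 1 hairpin against EIF4E2, a cap-binding protein known as a translational repressor, set against shscramble replicate 2. The series text names a non-targeting guide as the control of the clones whereas the label gives no treatment, so guide delivery and cloning cannot be told apart from METTL16 depletion there. METTL16 input was 6.80 and 6.94 TPM in the sgM16 clones against 12.8 TPM in untreated cells, and 3.50 TPM in shM16 against 11.1 TPM in its scramble. EIF4E2 input was 7.69 and 3.57 TPM in the sheIF4E2 replicates against 21.4 TPM in their scramble. All targeted transcripts were thus lower in the depleted samples.

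Values are the authors' TPM values, which divide reads by gene length and by the library's total, so a level is relative to the rest of its library and a change in total RNA per cell, or in cell number, cannot be seen. Changes are on the log2(TPM + 1) scale, depleted minus control. Translation efficiency (TE) is the footprint value minus the input value on that scale, so the input value enters the input change and the TE change with opposite signs. Whole reads could be recovered from the TPM steps. Libraries held 462611 to 699461 reads over listed genes in input and 196995 to 876336 in footprints. The median gene of the set had 23 to 37 input reads and 18 to 90.5 footprint reads, and 4 to 12 of the genes had fewer than 10 input reads in a library. Of 10 markers of A549, 8 to 10 were listed in each input library. Of 10 markers of other cell types 8, among them PTPRC, CD3E and PECAM1, were listed in no library. COL1A1 and ACTA2 were listed, and their summed input was 32.6 and 35.9 TPM in sheIF4E2 against 10.2 TPM in its scramble, and at most 11.0 TPM elsewhere.

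The promoters of the set share letters that its selection did not use. CACGTG, the canonical E-box, reads the same on both strands, and it was present in 24 of the 50 members whose promoter (250 bases before to 50 after the gene start) is in the RefSeq promoter table of GRCh38.p14. That is 48%, beside 25.7% of 70 other ribosome biogenesis genes, 12.7% of 10110 listed genes and 8.77% of 27305 genes in the table. A gene counts where any of its tabulated starts holds the motif. More than 1 start is tabulated for 10% of the members and 28.6% of listed genes, and among genes with 1 start the shares were 44.4% of 45 members and 10.5% of 7221 listed genes. The 24 genes held 27 copies, and in 22 of the genes a copy began within 50 bases of the gene start, as in 528 of the 1281 listed genes with the motif (41.2%). CCGGAAG, searched on both strands, was present in 38% of the members, 50% of the other biogenesis genes, 22% of listed genes and 12.2% of all genes in the table. Neither motif contains the other. The sequences below come from RefSeq and show the motif, in capitals, in genes whose values are described further on. Those of DDX21 and NOP10 are the 250 bases before a tabulated start, and the others are short windows. The table holds more than 1 start for DDX21, and its sequence precedes the downstream one, so it lies inside the annotated gene.
DDX21, chr10:68956397-68956646, plus strand: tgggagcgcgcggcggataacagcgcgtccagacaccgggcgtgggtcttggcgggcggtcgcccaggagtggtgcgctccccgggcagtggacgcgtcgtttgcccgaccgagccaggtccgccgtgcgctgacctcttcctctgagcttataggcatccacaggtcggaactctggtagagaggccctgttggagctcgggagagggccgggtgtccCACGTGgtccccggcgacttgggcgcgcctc
NOP10, chr15:34343137-34343386, minus strand: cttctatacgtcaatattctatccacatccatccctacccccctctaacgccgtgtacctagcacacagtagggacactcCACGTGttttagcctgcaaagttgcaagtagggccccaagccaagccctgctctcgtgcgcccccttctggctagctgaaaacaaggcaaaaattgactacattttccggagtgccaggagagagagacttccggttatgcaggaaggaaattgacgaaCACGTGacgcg
FBL, chr19:39846356-39846385, minus strand: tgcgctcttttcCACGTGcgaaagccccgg
GNL2, chr1:37595917-37595946, minus strand: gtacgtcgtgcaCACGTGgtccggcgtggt
LTV1, chr6:143843354-143843383, plus strand: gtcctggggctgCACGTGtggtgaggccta
NOC3L, chr10:94362903-94362932, minus strand: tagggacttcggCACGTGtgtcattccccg
RRP9, chr3:51941892-51941921, minus strand: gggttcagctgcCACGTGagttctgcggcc
TSR2, chrX:54440389-54440418, plus strand: ccgccgggacgtCACGTGgactggggccgg
WDR43, chr2:28894658-28894687, plus strand: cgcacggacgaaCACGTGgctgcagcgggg
WDR46, chr6:33289190-33289210, minus strand: agaggagttttgCACGTGgat
A match is a description of letters and not of binding. In the comparisons described below, the median TE change of the 23 tested members with the motif was -0.43 in the sgM16 clones, -0.96 in shM16 and 0.32 in sheIF4E2. That of members without it was -0.61 (26 genes), -0.78 (25 genes) and 0.41 (25 genes).

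In every sample the set was translated more efficiently than the median gene. The median TE of the members lay above that of all genes by 0.34 to 0.82 log2 units in the 8 samples, at a percentile of 68.0 to 85.2. By sample, 66.7% to 92.6% of the members were above the all-gene median, where 50% of genes lie, and 40.7% to 70.4% were in the top 25%, where 25% of genes lie. Of the 52 members measured in all samples, 18 were above the median in every one, against 14.8% of all genes, and TSR2, a chaperone of ribosomal protein RPS26, was above it in none (16.7% of all genes). Within the middle range of the members' input levels, which held 26 members in each sample, the median TE of these members was 0.56 to 1.04 log2 units higher than that of the other genes in the range. The other ribosome biogenesis genes were 0.35 to 0.70 above the all-gene median and mitochondrial ribosomal proteins 0.37 to 0.64 above it, while cytosolic ribosomal proteins ranged between -0.33 and 0.07. Members are not replicates, and all samples share gene lengths, so these values are descriptions with no test.

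**Figure D1:**
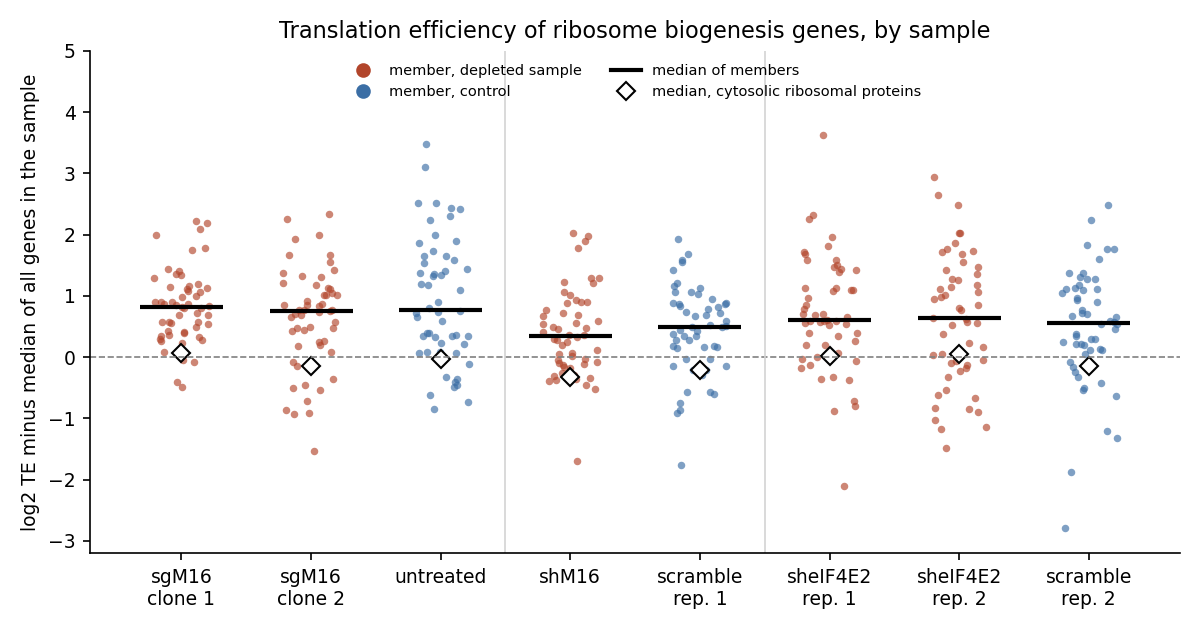
TE of the ribosome biogenesis genes in each of the 8 samples (x axis), as log2 TE minus the median of all genes in the sample (y axis); each point is 1 gene, red in depleted samples and blue in controls, with black bars for the members' median and diamonds for the median of cytosolic ribosomal proteins. The black bars lie 0.34 to 0.82 above 0 in all samples, and the diamonds between -0.33 and 0.07.

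The TE medians of the roles covered different but overlapping ranges, and differences between roles were not tested. The UTP-named proteins had medians of 0.64 to 1.45 log2 units above all genes across the 8 samples, and the WD-repeat proteins 0.36 to 1.72. Those of the C/D proteins were 0.08 to 0.58 and those of the other processome factors 0.14 to 0.57, while late 40S factors had 0.09 to 0.90 and 60S factors 0.13 to 0.82. The medians of the H/ACA proteins spanned -0.92 to 0.81, and those of NCL, NPM1 and DDX21 -0.03 to 1.87. Only the H/ACA group and NCL, NPM1 and DDX21 had a median below that of all genes in any sample, SURF2 apart.

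NOP58, a scaffold of the C/D RNP, had the highest mean TE of the set over the 3 controls. In shscramble replicate 1 alone, NOC4L and RRP9 stood above it, at 1.92 and 1.69 relative to all genes. On that scale NOP58 was 2.18 and 2.26 in the sgM16 clones and 3.48 in untreated cells. It was 0.91 in shM16 and 1.58 in its scramble, and 3.63 and 2.94 in sheIF4E2 and 2.48 in its scramble. It was above the 89th percentile in all samples, although its input rested on 6 to 33 reads. GNL2, a nucleolar GTPase of the 60S pathway, followed with 2.18 ± 0.95 (SD, n = 3 controls), then WDR75 with 1.63 ± 0.70 and WDR3 with 1.60 ± 1.02. At the other end stood TSR2 with -0.88 ± 0.43, the processome protein IMP3 with -0.57 ± 0.30, GAR1 with -0.52 ± 0.82 and LTV1 with -0.36 ± 2.17. The standard deviations cover 1 untreated and 2 scramble samples, and those of LTV1 and GAR1 exceed their means. LTV1 was 1.38 in untreated cells and 0.34 in shscramble replicate 1, both above the median gene, and its place among the lowest comes from shscramble replicate 2, where it had 0 footprint reads and the value is set by the pseudocount. By mRNA level, FBL, the ribose methyltransferase of C/D RNPs, had the highest mean over the controls. Its input was 597, 243 and 591 TPM in untreated cells, shscramble replicate 1 and shscramble replicate 2. NOP10 followed with 500, 346 and 384 TPM, above FBL in shscramble replicate 1. BOP1 had 154, 50.2 and 157 TPM, NHP2 106, 63.2 and 132 TPM and NOP56 87.0, 75 and 134 TPM. Shscramble replicate 1 was the lowest of the 3 controls for each of these 5 genes.

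The order of the members by TE was alike in untreated cells and shscramble replicate 2 and less so in shscramble replicate 1. Across 53 members, Spearman's rho was 0.72 between untreated cells and shscramble replicate 2, 0.11 between untreated cells and shscramble replicate 1 and 0.21 between the scrambles. Across all genes the corresponding values were 0.59, 0.41 and 0.43. Genes are not independent replicates, and the values of a sample share its libraries. Longer members tended to have the higher TE, with rho between relative gene length and TE of 0.09 in shscramble replicate 1 to 0.47 in shscramble replicate 2 over 54 members, beside -0.16 to 0.07 over all genes across the samples.

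**Figure D2:**
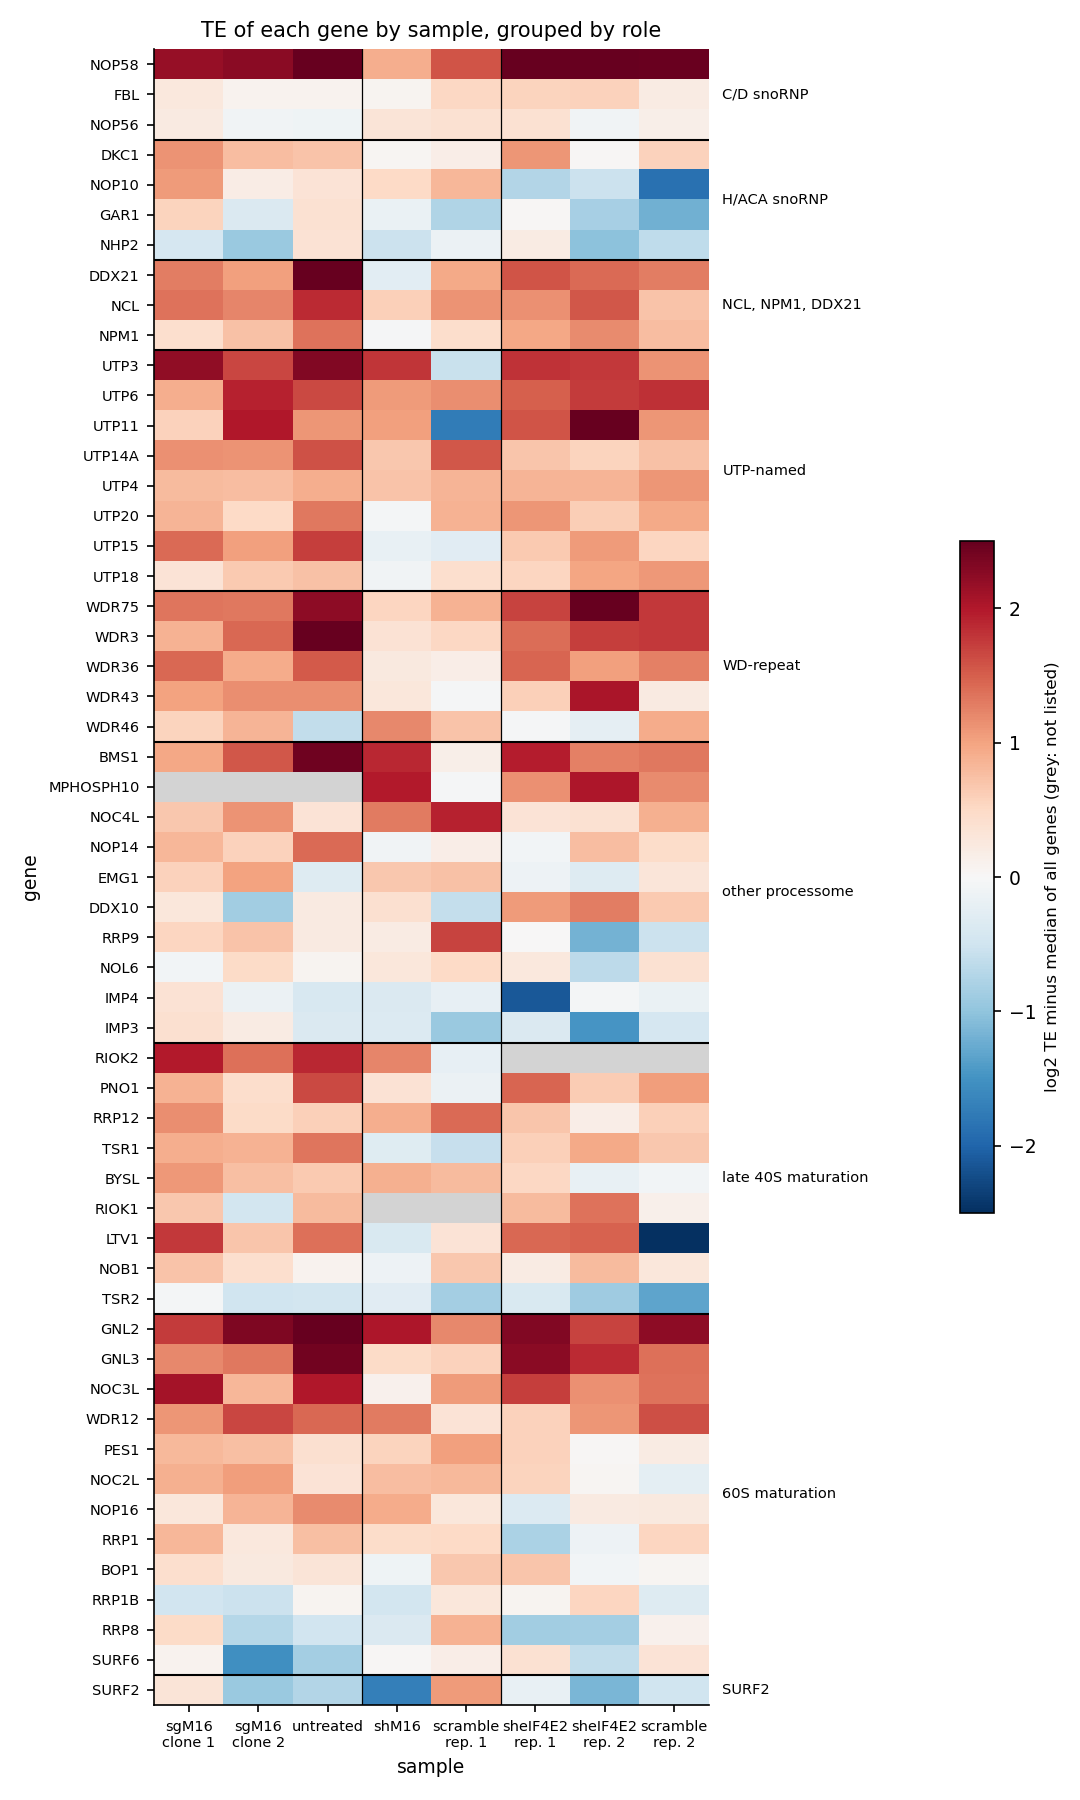
TE of each ribosome biogenesis gene (rows, grouped by role and ordered by mean TE) in each sample (columns), as log2 TE minus the median of all genes in the sample, from blue (lower) to red (higher), colours saturating at the ends of the bar, with grey where a gene was not listed in the table. NOP58, GNL2, WDR3, WDR36 and WDR75 are among the 18 genes above 0 in all 8 samples, and TSR2 is below 0 in all 8.

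In the sgM16 clones no member passed the test for a difference from untreated cells. With limma and Benjamini-Hochberg adjustment over 8505 genes, 0 of 54 members passed an adjusted p of 0.05 in input, in footprints or in TE, while 0.0118% of all genes passed as higher in input and 0% in the other directions and quantities. At an unadjusted p under 0.05, 7 members were higher and 2 lower in input (8.74% and 2.05% of all genes), 0 higher and 3 lower in footprints (2% and 5.11%), and 1 higher and 11 lower in TE (1.06% and 7.51%). The median member changed by 0.22 in input, -0.24 in footprints and -0.52 in TE, beside 0.10, -0.23 and -0.33 for all genes. In both clones 28 members were above the control in input and 16 below it (43.3% and 29.6% of all genes), 4 above and 32 below in footprints (18.4% and 52.9%), and 6 above and 33 below in TE (18% and 55.1%). The other ribosome biogenesis genes, of which 83 were tested, had medians of 0.08, -0.36 and -0.40 with 0 calls. The p-values measure only the spread between 2 clones of 1 guide, with the lone untreated sample assumed to vary like them.

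By role, NCL, NPM1 and DDX21 were above the control in input in both clones (median 0.71), as were 6 of 8 UTP-named genes (median 0.44, 0 below) and 4 of 5 WD-repeat genes (median 0.40). Of the other processome factors 3 of 9 were above and 6 below (median -0.34), and the late 40S factors were divided into 5 above and 4 below. In TE, NCL, NPM1 and DDX21 were below the control in both clones (median -1.09), as were 7 of 8 UTP-named genes (median -0.61), 4 of 5 WD-repeat genes and 8 of 12 60S factors. Of all genes, 43.3% were above in input and 55.1% below in TE in both clones. Relative to all genes, the median TE of NCL, NPM1 and DDX21 was 1.28 and 1.02 in the clones against 1.87 in untreated cells. In the scrambles it was 0.95 and 0.76. The UTP-named genes had 0.88 and 1.07 against 1.45, with 0.64 and 1.10 in the scrambles. In both groups the clones were thus below untreated cells but not below both scrambles. At least 1 log2 unit in both clones, 4 members were higher in input (4.22% of all genes), 9 were lower in TE (9.21%) and 0 were higher in TE (1.55%). Once the all-gene median of each clone was removed, 4 were lower in TE (4.12%) and 1 was higher (3.22%).

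DDX21, an RNA helicase that acts in rRNA transcription and processing, had the lowest unadjusted p in TE of the set. Its input was 32.3 and 44.9 TPM in the clones against 17.8 TPM in untreated cells (74, 90 and 35 reads), and its footprints were 56.7 and 60.2 TPM against 90.7 TPM. The clones lay above the control in input and below it in footprints. The scrambles had 40.6 and 68.0 TPM of DDX21 input and 53.0 and 69.8 TPM of footprints, so the clones' footprints lay between those of the scrambles. Input differed by 1.05 ± 0.31 log2 units (SE, adjusted p = 0.329, limma) and TE by -1.68 ± 0.43 (adjusted p = 0.561). NOP58 had 15.2 and 17.4 TPM of input in the clones against 4.64 TPM in untreated cells, and 51.5 and 57.1 TPM of footprints against 52.8 TPM. The clones were above untreated cells in input and on both sides of them in footprints, while NOP58 input in the scrambles, 17.0 and 16.6 TPM, was like that of the clones. The input change was 1.62 ± 0.31 (adjusted p = 0.205, limma), a ratio of 3.50 with a 95% interval of counting error of 1.49 to 10.0, since the control value rests on 6 reads. BMS1, the GTPase of the processome, had 8.67 and 7.35 TPM of input in the clones against 2.29 TPM in untreated cells (31, 23 and 7 reads), and footprints of 12.5 and 15.2 TPM against 14.2 TPM. As for NOP58, both clones exceeded the control in input and lay on both sides of it in footprints, with an input change of 1.45 ± 0.39 (adjusted p = 0.316, limma) and a TE change of -1.49 ± 0.56 (adjusted p = 0.561). BMS1 input was 9.79 and 8.12 TPM in the scrambles, above that of untreated cells.

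WDR46, a processome scaffold, differed in the other direction. Input was 32.1 and 38.5 TPM in the clones against 63.4 TPM in untreated cells and footprints were 33.9 and 46.2 TPM against 34.8 TPM. Both clones were below the control in input only, by -0.83 ± 0.31 (adjusted p = 0.416, limma), and the TE change was 1.01 ± 0.44 (adjusted p = 0.577). Relative to all genes, WDR46 TE was 0.57 and 0.86 in the clones, -0.62 in untreated cells and 0.71 and 0.93 in the scrambles. The clones were thus above untreated cells and like the scrambles in TE. Their input lay between the 24.7 and 51.5 TPM of the scrambles. Other processome genes also had lower input in both clones. NOC4L had 43.0 and 44.2 TPM in the clones against 71.5 TPM in untreated cells (-0.70 ± 0.29, adjusted p = 0.445, limma). EMG1, a methyltransferase of 18S rRNA, had 20.2 and 15.9 TPM in the clones against 28.4 TPM in untreated cells (-0.64 ± 0.33, adjusted p = 0.526, limma), with footprints of 21.5 and 21.4 TPM against 19.1 TPM. IMP3 had the third largest higher TE, 0.35 ± 0.47 (adjusted p = 0.852, limma).

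In footprints the largest differences were lower values of NHP2, RRP1B and WDR75. NHP2, an H/ACA core protein, had 71.6 and 39.1 TPM in the clones against 116 TPM in untreated cells (-1.11 ± 0.36, adjusted p = 0.621, limma). RRP1B had 12.4 and 14.9 TPM in the clones against 25.4 TPM in untreated cells (-0.85 ± 0.34, adjusted p = 0.680, limma), and WDR75 had 13.3 and 14.3 TPM against 25.4 TPM (-0.83 ± 0.37, adjusted p = 0.680, limma). The scrambles had footprints of 38.1 and 35.2 TPM for NHP2, 8.14 and 12.1 TPM for RRP1B and 12.4 and 11.9 TPM for WDR75. For each of these genes both clones were thus below untreated cells and above both scrambles. The naming rule requires both clones to lie on 1 side of the control, as both lay below it for 52.9% of all genes. SURF2, with 46.5 and 32.1 TPM in the clones against 27.0 TPM in untreated cells, was the highest in the other direction (0.50 ± 0.40, adjusted p = 0.744, limma).

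**Figure D3:**
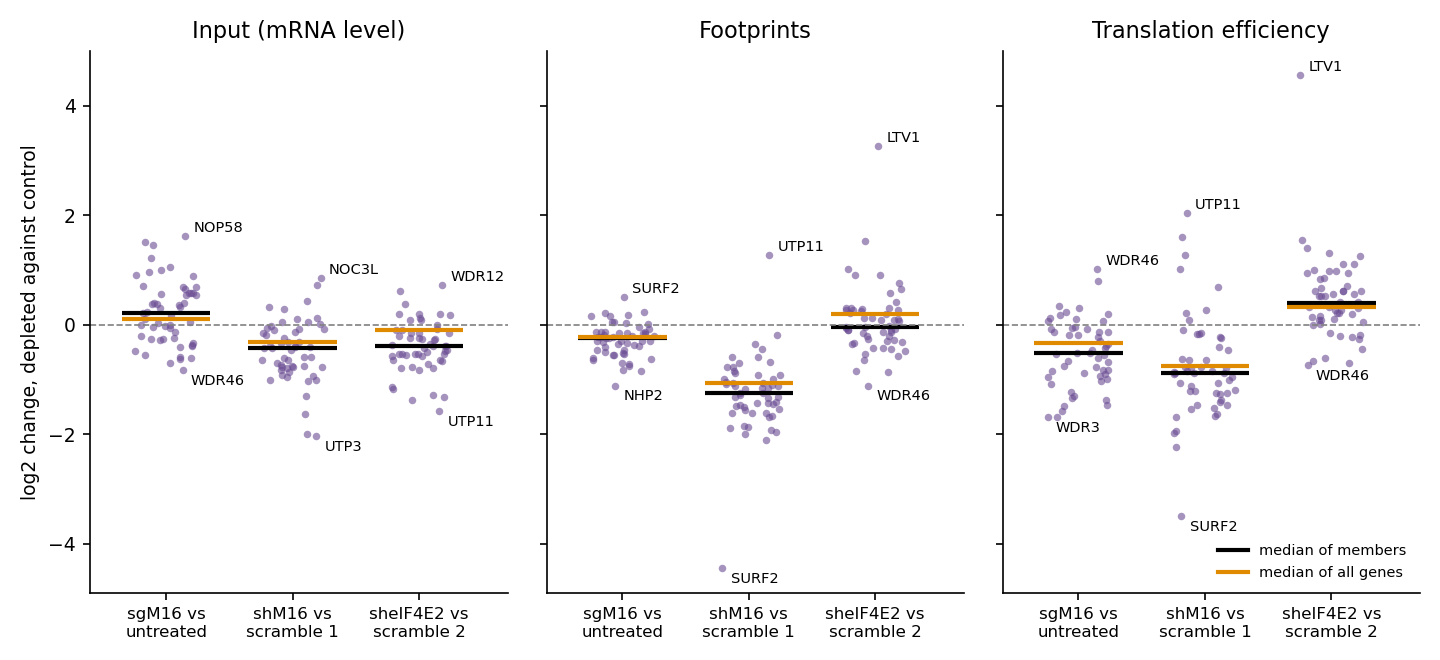
Log2 change (y axis, depleted minus control on the log2(TPM + 1) scale) of each member in input, footprints and TE for the 3 comparisons (x axis); each point is 1 gene, the mean over samples where there are 2, with black bars for the members' median and orange bars for the median of all genes. In footprints of shM16 the members' median is -1.25 and that of all genes -1.06, where SURF2 is the lowest and UTP11 the highest; the height of LTV1 in sheIF4E2 rests on 0 footprint reads in the control.

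The hairpin against METTL16 was profiled once and set against 1 scramble sample, so the differences within the pair have no replicate check and no test. Footprints were lower across the set. In footprints 53 of 54 members were below the scramble and 1 above (95.2% and 4.84% of 8168 genes), with a median change of -1.25 beside -1.06 for all genes. In input 44 were below and 10 above (71.2% and 28.8%), with medians of -0.43 and -0.32, and in TE 46 were below and 8 above (84.3% and 15.7%), with medians of -0.89 and -0.76. The listed genes together held 16% of the footprint TPM total in shM16 against 27.6% in its scramble, and the part of this difference in the lower footprints was not tested. At least 1 log2 unit apart, 38 members were lower and 1 higher in footprints (54.4% and 0.343% of all genes) and 23 lower and 4 higher in TE (36% and 2.01%). With the all-gene median removed these counts were 2 and 1 in footprints (3.4% and 5.96%) and 4 and 6 in TE (7.05% and 9.89%). The intervals given for reads here cover counting error only.

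SURF2 had the largest footprint difference of the set. It had 0.762 TPM, 1 read, in shM16 against 37.5 TPM, 24 reads, in the scramble, with input of 13.2 TPM against 26.3 TPM. The footprint ratio was 0.0203 with an interval of 0.000494 to 0.125, and the TE change was -3.50. The other scramble had 19.0 TPM of SURF2 footprints and 66.0 TPM of input. Relative to all genes, SURF2 TE was -1.70 in shM16, 1.06 in shscramble replicate 1 and -0.50 in the other scramble. The shM16 sample was below both, and the size of the TE change depends on the control. DDX21 followed a different course in input: 41.1 TPM in shM16 against 40.6 TPM in the scramble, with footprints of 13.2 TPM against 53.0 TPM (86 and 169 reads). The mRNA level was alike and footprints were lower, giving a TE ratio of 0.245 with an interval of 0.162 to 0.370. RRP9, the U3 RNP protein, had 35.3 TPM of input in shM16 against 20.9 TPM and 15.8 TPM of footprints against 46.6 TPM, a TE change of -2.23. The other scramble had 79.9 TPM of RRP9 input and 22.5 TPM of footprints, a ratio of footprints to input below that of shM16, so the direction of the RRP9 difference depends on the control. With both scrambles its TE change was -0.78 (adjusted p = 0.972, limma). NOC3L had 11.4 TPM of input in shM16 against 5.89 TPM and 4.44 TPM of footprints against 8.74 TPM, a TE change of -1.69. In both genes input was higher and footprints lower than in shscramble replicate 1, and the input of the scramble rested on 11 reads for RRP9 and 9 for NOC3L.

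A few processome genes had higher TE in shM16 than in shscramble replicate 1, in each case with lower mRNA. UTP3 had 7.34 TPM of input in shM16 against 33.3 TPM in the scramble (9 and 23 reads) and 10.6 TPM of footprints against 14.7 TPM, a TE ratio of 3.26 with an interval of 1.13 to 9.73. MPHOSPH10, which forms a complex with IMP3 and IMP4, had 3.03 TPM of input against 11.4 TPM and a TE ratio of 2.85, and BMS1 had 1.70 TPM against 9.79 TPM and a ratio of 2.49. The intervals of the last pair, 0.937 to 9.04 and 0.915 to 7.27, include 1. Relative to all genes, UTP3 TE was 1.78 in shM16, -0.56 in shscramble replicate 1 and 1.13 in the other scramble. In the same order it was 1.98, -0.04 and 1.18 for MPHOSPH10 and 1.89, 0.14 and 1.31 for BMS1. For each gene shM16 was above both scrambles but nearer the other scramble, so the size of the ratio depends on the control. NOP16, also named by the rule, had a TE change of -0.10, which is 0.66 above that of the median gene. UTP11, outside the naming rule because its footprints averaged under 5 TPM and named after its values were seen, was the 1 member with more footprints in shM16 than in the scramble, 6.98 TPM against 2.31 TPM. It had 31 footprint reads against 5 and a TE ratio of 5.37 with an interval of 1.53 to 21.2. The ratio rests on the 5 reads of that scramble, since the other scramble had 13.1 TPM of UTP11 footprints, above shM16. With both scrambles the changes were 0.23 in footprints (adjusted p = 0.828, limma) and 0.94 in TE (adjusted p = 0.972).

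Both scramble samples could serve as the control in 1 limma fit over all 16 libraries, in which the spread comes from the pairs of the other groups and from the scrambles. There, 14 of 52 members were lower in footprints of shM16 at an adjusted p under 0.05, 26.9%, beside 10.9% of 8021 genes and 14 of 82 other biogenesis genes. The medians were -1.29 for the members and -0.87 for all genes. When the libraries were first scaled by their median of ratios, which brought the all-gene median to 0.05 and that of the members to -0.27, 1 member was called lower, SURF2, beside 0.0997% of all genes. The other 13 were not called with that scaling. In TPM as deposited the 14 genes were SURF2, BOP1, DDX21, NOL6, NOB1, UTP4, UTP18, UTP14A, IMP3, FBL, NPM1, TSR1, WDR46 and NOP58. BOP1, of the PES1 complex, had 11.7 TPM in shM16 against 54.0 and 68.2 TPM in the scrambles (-2.28 ± 0.56, adjusted p = 0.0330, limma). DDX21 had 13.2 TPM against 53.0 and 69.8 TPM (-2.13 ± 0.43, adjusted p = 0.0270, limma). NOB1, the nuclease that makes the final cut of 18S rRNA, had 10.1 TPM against 43.8 and 37.5 TPM (-1.90 ± 0.48, adjusted p = 0.0345, limma), and UTP4 had 7.07 TPM against 29.0 and 28.7 TPM (-1.89 ± 0.39, adjusted p = 0.0271, limma). How reads that fit several places were counted is not given in the sources used here, so the values of NPM1 and BMS1, which have pseudogenes, are uncertain, as are those of RRP1B beside its paralog RRP1. For BOP1, DDX21, NOB1 and UTP4 shM16 lay below both scrambles. In input and TE 0 members and 0% of all genes were called lower, and at an unadjusted p under 0.05 13 and 4 members were lower, beside 15% and 2.9% of all genes. The fit holds 1 shM16 sample, so its p-values rest on the spread of the other groups, which shM16 is assumed to share, and it sets levels side by side across tables that were listed separately.

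Depletion of eIF4E2 was followed by called changes in 2 members, both in footprints. NOP10 and LTV1 passed an adjusted p of 0.05 as higher and 0 members as lower (0.57% and 0.0582% of 8597 genes). In input 0 members passed (0.0116% of all genes higher and 0% lower), and in TE 0 of both members and all genes did. At an unadjusted p under 0.05, 0 members were higher and 10 lower in input (3.09% and 4.13% of all genes), 2 higher and 1 lower in footprints (13.5% and 2.92%) and 4 higher and 0 lower in TE (8% and 1.38%). The median member changed by -0.40 in input, -0.05 in footprints and 0.39 in TE, beside -0.10, 0.20 and 0.32 for all genes. In both replicates 6 members were above the scramble in input and 39 below (30.1% and 46% of all genes), 19 above and 15 below in footprints (48% and 22.6%), and 31 above and 6 below in TE (52.8% and 19.4%). With both scrambles as the control, in the fit over all 16 libraries, the medians of the members were -0.02, 0.02 and -0.01, beside 0.06, 0.08 and -0.01 for all genes, with 0 members called. The other ribosome biogenesis genes, 85 tested, had medians of -0.34, 0.03 and 0.39 with 0 calls. The summed markers of other cell types moved with these groups as given above, and their part in the result was not tested.

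NOP10, the smallest H/ACA core protein, had footprints of 127 and 129 TPM in sheIF4E2 against 43.6 TPM in its scramble (18, 23 and 7 reads) and input of 398 and 365 TPM against 384 TPM. Both replicates were above the control in footprints and on either side of it in input. The footprint change was 1.53 ± 0.18 (adjusted p = 0.0311, limma), a ratio of 2.94 with an interval of 1.31 to 7.76. The call rests on that scramble sample: NOP10 footprints were 416 TPM in the other scramble and 540 TPM in untreated cells, both above the sheIF4E2 replicates. With both scrambles as the control, in the fit over all 16 libraries, the change was -0.08 (adjusted p = 0.980, limma). LTV1, a late 40S assembly factor, had footprints of 9.63 and 7.68 TPM in sheIF4E2, 5 reads each, against 0 reads in the scramble, and input of 6.48 and 5.06 TPM against 15.5 TPM. Taking 3 reads or 5.11 TPM as the upper limit that a count of 0 allows in the scramble, LTV1 footprints were at least 1.67-fold higher in sheIF4E2. That value leaves out the counting error of the sheIF4E2 reads. LTV1 had 16 TPM in the other scramble and 7.27 TPM in untreated cells, on either side of the sheIF4E2 values. The adjusted p of its fitted change was 0.0420 (limma), and the fitted size depends on the pseudocount and is not given. The medians of the set are the same with the LTV1 change taken from that limit in the scramble. The number of members called higher in footprints was 2 here, 1 with median-of-ratios scaling and 0 without the filter on low values, without the variance trend or with voom on reads.

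Lower mRNA in both sheIF4E2 replicates was seen in each of the 3 C/D proteins, in NCL, NPM1 and DDX21, and in all 5 WD-repeat genes, with medians of -0.47, -0.82 and -0.58 against their own scramble. Of all genes, 46% were lower in both replicates. The other roles were less uniform. Of the 60S factors 7 of 12 were lower and 3 higher. Of the other processome factors 5 of 10 were lower and 2 higher, and of the UTP-named genes 6 of 8 were lower and 1 higher. Late 40S factors had 6 of 8 lower and H/ACA proteins 3 of 4, with 0 higher in either. With both scrambles as the control, the input change was 0.24 for FBL, 0.14 for WDR46 and -0.06 for NOP56, and -0.25 for NCL, -0.38 for NPM1, -0.82 for DDX21 and -1.33 for NOP58, and it was -0.86 to -0.46 for the other WD-repeat genes, with 0 of these called. UTP11 had the largest such difference, with 4.97 and 3.47 TPM in sheIF4E2 against 14.4 TPM in the scramble (-1.58 ± 0.45, adjusted p = 0.519, limma). NOP58 had 5.13 and 7.16 TPM in sheIF4E2 against 16.6 TPM in the scramble (-1.32 ± 0.35, adjusted p = 0.513, limma), and its footprints were 39.2 and 31.3 TPM against 40.5 TPM. LTV1 had an input change of -1.29 ± 0.45 (adjusted p = 0.616, limma). When the recovered reads were tested with voom in place of log2 TPM, 4 members were lower in input, where 2.31% of all genes were, DDX21 (-1.20, adjusted p = 0.00201), NCL (-0.83, adjusted p = 0.00229), WDR43 (-1.17, adjusted p = 0.00896) and DDX10 (-1.61, adjusted p = 0.0457). DDX21 input was 25.1 and 34.4 TPM in sheIF4E2 against 68.0 TPM in this scramble, 40.6 TPM in the other and 17.8 TPM in untreated cells. NCL input was 61.9 and 51.8 TPM against 101, 44.9 and 54.0 TPM in the same controls, so its direction depends on the control. WDR43 had 43.9 and 21.1 TPM against 68.4, 45.6 and 31.5 TPM. DDX10 had 3.63 and 2.45 TPM against 9.32, 6.11 and 4.71 TPM. EMG1 (25.8 and 28.9 TPM in sheIF4E2 against 17.4 TPM), NOC3L (6.45 and 11.5 TPM against 6.42 TPM) and MPHOSPH10 (5.51 and 5.38 TPM against 4.61 TPM) were higher, with adjusted p of 0.749, 0.902 and 0.958 (limma). The MPHOSPH10 value of this scramble rests on 7 reads. The other scramble had 11.4 TPM, above both sheIF4E2 replicates, so the direction for MPHOSPH10 depends on the control.

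In footprints and TE, WDR46 stood lowest in sheIF4E2. Its footprints were 18.9 and 18.1 TPM in sheIF4E2 against 41.2 TPM in the scramble (15, 18 and 37 reads), with input of 37.3 and 42.2 TPM against 51.5 TPM. Both replicates were below the control in both assays. The footprint change was -1.12 ± 0.27 (adjusted p = 0.126, limma) and the TE change -0.74 ± 0.39 (adjusted p = 0.571). IMP4 had 7.42 and 20.3 TPM of footprints against 23.4 TPM (-0.87 ± 0.55, adjusted p = 0.495, limma) and RRP1 had 6.71 and 8.03 TPM against 14.1 TPM (-0.86 ± 0.37, adjusted p = 0.305, limma). WDR43 had the third highest TE change, 0.70 and 2.11 in the replicates (1.40 ± 0.61, adjusted p = 0.542, limma), and NOC4L was -0.23 in both (adjusted p = 0.888). MPHOSPH10 footprints were 6.55 and 12.4 TPM in sheIF4E2 against 4.35 TPM in the scramble (adjusted p = 0.421, limma). At least 1 log2 unit in both replicates, 2 members were higher in footprints and 2 in TE on the log2(TPM + 1) scale (7.94% and 10.1% of all genes), NOP10 and LTV1 in each case. With the scramble at the limit that its 0 reads allow, the LTV1 change over both replicates was 0.74 in footprints, before counting error in sheIF4E2. LTV1 is thus not known to pass 1 log2 unit there. The counting interval of the NOP10 footprint ratio given above also includes smaller changes, so its passing is not known either.

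**Figure D4:**
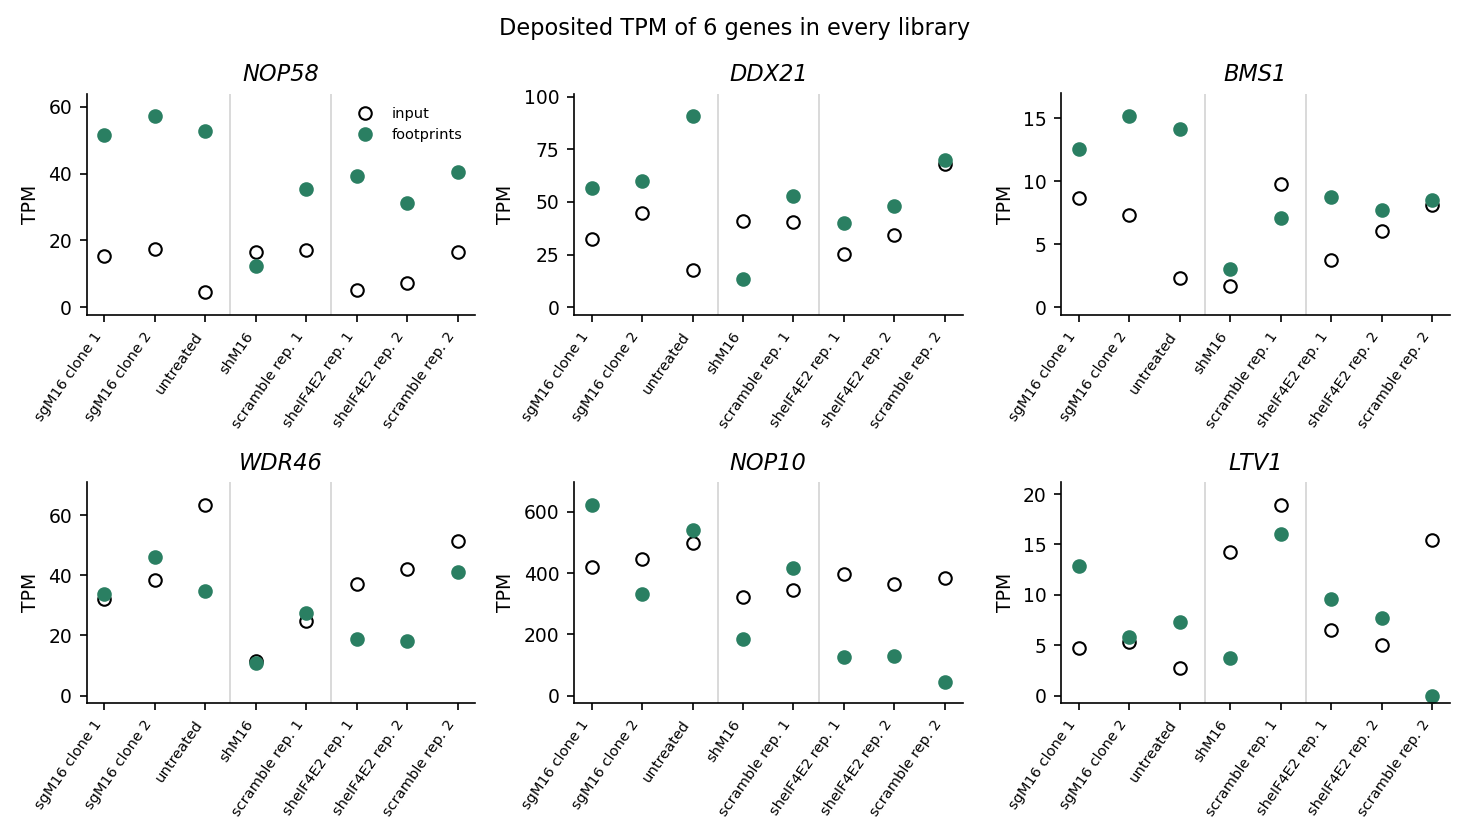
TPM (y axis) of 6 genes in every sample (x axis), with open circles for input and filled circles for footprints and grey lines between the 3 comparisons. NOP10 footprints are 127 and 129 TPM in sheIF4E2, 43.6 TPM in scramble replicate 2 and 416 TPM in scramble replicate 1, and DDX21 footprints are 13.2 TPM in shM16.

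The guide and the hairpin against METTL16 have no control in common, and the members' changes in one did not follow those in the other. Over 53 members, Spearman's rho between the mean change in the clones and the change in shM16 was 0.04 in input, -0.03 in footprints and -0.04 in TE, beside 0.01, 0.02 and -0.05 over 7503 genes. At least 1 log2 unit in both clones and in shM16, TE was lower for 4 members (3.05% of all genes), NOP58, NHP2, DDX21 and WDR75. With the all-gene median of each sample removed it was lower for 1 member, DDX21 (0.24%, 18 of 7503 genes), and higher for 0. The TE changes of DDX21 were -1.49 and -1.87 in the clones and -1.95 in shM16, with counting intervals of the TE ratio of 0.215 to 0.548, 0.162 to 0.424 and 0.162 to 0.370. In the clones the difference lay in input and footprints, and in shM16 it lay in footprints. Relative to all genes, DDX21 TE was 1.28 and 1.02 in the clones, 2.5 in untreated cells and 0.95 and 1.28 in the scrambles. The clones were thus below untreated cells and like the scrambles. The shM16 sample, at -0.26, was below untreated cells and both scrambles. In sheIF4E2, set against its own scramble, DDX21 had a TE change of 0.53 ± 0.42 (SE, adjusted p = 0.696, limma).

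**Figure D5:**
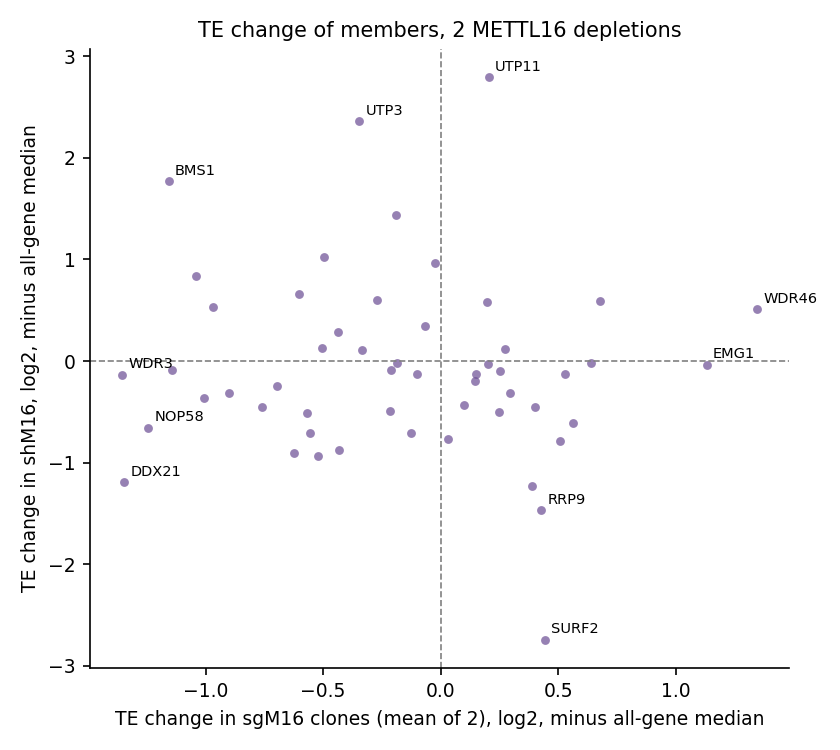
TE change of 53 members in the sgM16 clones (x axis, mean of 2) and in shM16 (y axis), both in log2 units with the median change of all genes removed, so that each dashed line marks a gene that changed as the median gene did. The points follow no common line (rho -0.04), with DDX21 low on both axes and BMS1 low on the x axis and high on the y axis.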

How the data were processed

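Human A549 cells were profiled as 8 samples, each with 1 input and 1 footprint library. The deposited values are TPM; per the submitters' processing notes featureCounts 2.0.1, STAR 2.7.5c, Bowtie2 2.2.5, Bowtie 1.3.0 and cutadapt 2.8 were used with build GRCh38, their roles not stated. In the deposited tables, the genes listed for a sample have at least 1 TPM in its input.

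Within each table of 6 libraries, genes with a mean of at least 1 TPM in both assays were tested on log2(TPM + 1) with limma 3.58.1 in R 4.3.3 (empirical Bayes with trend, 2 residual degrees of freedom, Benjamini-Hochberg adjustment over all genes, threshold 0.05). The residual degrees of freedom come from the depleted pair. The shM16 sample had no test of its own. TE was the footprint minus the input change. Whole reads were recovered for 11892 of 11892 genes to a relative tolerance of 1e-10, except for any multiplier that all libraries of a gene share, and gave exact 95% intervals. The fits and the recovery were tested on simulated data.

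Named genes had the 3 largest changes in each direction that every depleted sample shared, or the 4 highest and 4 lowest TE changes in shM16, among members with a mean of at least 5 TPM in each assay of the table. Genes past the threshold and those of highest and lowest control TE and highest control input were named without that minimum. The members and lists were chosen with earlier results of these data known. Comparisons of protein sequence were not made here. Alternatives were another pseudocount, other filters, median-of-ratios scaling, no trend, voom, a replicate block, 1 fit over all libraries (also with scaling, added after seeing the data) and leaving out each replicate.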

Additional observations from a re-analysis of the deposited data

Results flagged for a closer look

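BMS1, the processome GTPase, differed in direction between the guide and the hairpin against METTL16. Its input change was 1.56 and 1.35 log2 units in the sgM16 clones (31 and 23 reads, against 7 in untreated cells) and -2.0 in shM16 (8 reads, against 26 in its scramble). Its TE change was -1.72 and -1.26 in the clones and 1.008 in shM16. Both clones moved one way and the hairpin sample the other, and the difference was not tested. BMS1 input was 8.67 and 7.35 TPM in the clones and 1.70 TPM in shM16, against 2.29 TPM in untreated cells and 9.79 and 8.12 TPM in the scrambles, so the clones were above untreated cells and like the scrambles.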

How the results depend on the processing

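Of 366 values of 44 named changes under alternatives, 355 kept their direction and their side of the threshold or interval. Much of this count was fixed by the naming rule and is no measure of robustness. The rule asked for 1 direction in every depleted sample, so leaving out a replicate could not turn it. Of the changes tested with limma, only the footprint changes of NOP10 and LTV1 in sheIF4E2 were past the threshold at the start. NOP10 in sheIF4E2 reversed in the fit over all 16 libraries, to -0.1441 in TE and -0.08042 in footprints. The footprint call of NOP10 was lost without the filter, without the trend and with voom, and that of LTV1 also with median-of-ratios scaling and in the fit over all libraries; the cause was not tested. Members called higher in sheIF4E2 footprints, 2, became 1 with median-of-ratios scaling and 0 without the filter, without the trend, with voom and in the fit over all libraries, and members called lower in input became 4 with voom. With the replicate block, which fits a sample's input and footprints together with 1 residual degree of freedom, 0 members were called in TE, as without it; input and footprint calls were not run with the block.

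In the fit over all libraries, chosen for these medians after seeing the data, the members' median minus that of all genes was -0.009877 in sgM16 footprints, -0.4219 in shM16 footprints, and -0.08639 in input and -0.05362 in footprints of sheIF4E2. Members called lower in shM16 footprints by that fit, 14, became 1 with median-of-ratios scaling, also tried after seeing the data. Within the tables, the members' median minus that of all genes in sgM16 input became 0.00653 with a filter of 5 TPM and spanned 0.02549 to 0.1305 without replicates in turn. In sgM16 footprints it was -0.001878 with a pseudocount of 0.1, -0.02054 without the filter, -0.04907 with a filter of 5 TPM, 0.001038 with median-of-ratios scaling and -0.06953 to -0.06434 without replicates in turn. In shM16 footprints it was -0.0683, -0.2957, -0.07758 and -0.04266 under the same 4 settings. In sheIF4E2 input it spanned -0.3862 to -0.2768 without replicates in turn.

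Counts of members past 1 log2 unit moved as follows. All-gene shares were not taken for the alternative filter, for median-of-ratios scaling or without replicates in turn. Those counts describe the settings and are not results about the members. In sgM16 input, 4 higher became 2 with a filter of 5 TPM and 4 to 9 without replicates in turn. In sgM16 footprints, 0 lower became 0 to 4 without replicates in turn. In sgM16 TE, 0 higher became 1 with median-of-ratios scaling or with the median removed and 0 to 1 without replicates in turn, and 9 lower became 4, 4 and 12 to 20. In shM16 input, 0 higher became 2 and 7 lower became 3 with either scaling. Of 8168 genes, 204 were higher and 973 lower there, and 493 and 416 with the median removed. In shM16 footprints, 1 higher became 0 with a filter of 5 TPM, and 38 lower became 1 with median-of-ratios scaling and 2 with the median removed. In shM16 TE, 23 lower became 5 and 4. Without replicates in turn, sheIF4E2 gave 6 to 7 lower in input, 2 to 5 higher and 1 to 2 lower in footprints, and 9 higher either way and 0 to 2 lower in TE. Low reads, single controls and the shared scale of input and TE limit all of these.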
